A study of Homo sapiens with 8 samples.

Results

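The MHC class I antigen presentation pathway was followed through 9 genes, chosen by name from the 23228 gene symbols counted in each of 8 RNA-seq libraries of BT-549 cells. They are the heavy chain genes HLA-B, HLA-C and HLA-E, the light chain gene B2M, the peptide transporter genes TAP1 and TAP2, the tapasin gene TAPBP, and the immunoproteasome subunit genes PSMB8 and PSMB9. All 9 passed the filter on low counts and were tested, among 13694 tested genes. BT-549 is an established triple negative breast cancer (TNBC) cell line of mesenchymal character. The cells received DMSO (vehicle), EC359 at 100 nM, vorinostat at 10 µM, or EC359 and vorinostat together at those doses (combination), each for 24 h. EC359 inhibits LIFR, the receptor for leukemia inhibitory factor, and vorinostat inhibits histone deacetylases. No group carried a genetic change made for the experiment, and a single cell line without immune cells was used. Each group held 2 libraries, and the labels do not say whether these came from separate cultures, so the p-values measure only the spread between these libraries, which may be technical.

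MHC class I molecules show peptides from inside the cell to CD8+ T cells and natural killer cells. The proteasome cuts proteins into peptides, the TAP transporter moves them into the endoplasmic reticulum, and tapasin helps load them onto a heavy chain bound to beta-2-microglobulin. Interferon gamma is the best known inducer of the pathway and acts through transcription factors such as IRF1 and NLRC5, and tumor cells often carry low levels of its genes.

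Between 19069450 and 24759041 reads were counted on genes in a library. Replicate libraries differed most with EC359, where the log2 difference of a gene had an SD of 0.563 over all tested genes, and between 0.312 and 0.448 for the other groups. The 8 mesenchymal markers were all detected, with a summed level of 8999 to 16830 CPM (reads on a gene per fixed number of reads in the library, after TMM scaling), from VIM with 44019 to 184896 reads in a library to CDH2 with 487 to 957 and TWIST1 with 263 to 1456. With the combination against vehicle, VIM was called higher and TWIST1 and SPARC lower. Of 9 receptor and luminal markers, the estrogen and progesterone receptor genes ESR1 and PGR had at most 20 reads and 1 read. ERBB2 had 2036 to 2184 reads with vehicle and 308 to 347 with vorinostat. The summed level of the list was 99.6 to 105.9 CPM with vehicle, 29.8 to 41.6 with vorinostat and 19.7 to 39.5 with the combination. Most of the vehicle sum was ERBB2, with means of 99.1 CPM with vehicle and 15.3 with vorinostat. All tested genes of the list but ERBB2 had positive values with vorinostat and with the combination, 7 of 8, beside 6990 and 7154 of 13694 tested genes. EPCAM and GATA3 were called higher with vorinostat, and ESR1 and GATA3 with the combination. These called genes had at most 7 reads with vehicle, so the filter on low counts favoured a higher call. The epithelial genes EPCAM, KRT8 and KRT18 had at most 33 reads with vehicle and 50 to 188 with vorinostat, and differed widely between the combination libraries, with 9 and 70 reads for EPCAM, 26 and 180 for KRT8, and 14 and 157 for KRT18. Leukocytes, which carry class I genes at a high level, were checked by 11 markers. The pan-leukocyte gene PTPRC had at most 15 reads, the T cell gene CD3E at most 1 and CD86 0 in every library, which allows up to 3 reads a library by counting error. The other B cell and antigen-presenting cell markers MS4A1 and CD80 had at most 18 reads in a library, and CD14 at most 42. ITGAX and ITGAM had at most 6 and 9 reads. CD68, NCAM1 and CD83 were well counted, and NCAM1 had 1595 to 1610 reads with vehicle and 3326 to 4103 with vorinostat. CD83, a marker of dendritic cells, had 528 to 542 reads with vehicle and 946 to 1013 with the combination (log2 0.99, edgeR adjusted p = 3.9e-05), and CD68, a marker of macrophages, had 852 to 1003 and 4342 to 5234. The summed level of the 11 markers was 139.9 to 150.5 CPM with vehicle, 215.3 to 321.5 with EC359, 271.9 to 274.3 with vorinostat and 428.6 to 464.3 with the combination. Most of it came from NCAM1, CD68 and CD83, which had means of 75.3, 43.6 and 25.1 CPM with vehicle. The part of these marker lists in the results was not tested.

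In genome build GRCh37 (hg19), 8 of the 9 genes lie on chromosome 6, within or near the MHC region, and B2M lies on chromosome 15. By the GENCODE canonical transcript, HLA-E spans chr6:30457286-30461971 on the plus strand, HLA-C chr6:31236526-31239869 and HLA-B chr6:31321652-31324956 on the minus strand. The transporter and immunoproteasome genes form a cluster, in which TAP2 spans chr6:32793192-32806516, PSMB8 chr6:32808494-32811824 and TAP1 chr6:32812986-32821481, all on the minus strand. PSMB9, at chr6:32821969-32827628 on the plus strand, starts 488 bases from the start of TAP1 and is read in the opposite direction. TAPBP spans chr6:33267471-33281855 on the minus strand, and B2M chr15:45003715-45010343 on the plus strand. The canonical transcripts hold between 4 exons for B2M and 12 for TAP2.

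The sequence just before the start site was read for pairs of genes. Among the heavy chains, HLA-B and HLA-C both rose with vorinostat, by unlike amounts (log2 3.47 and 0.55). TAP1 and TAP2, the subunits of the same transporter, had values of opposite sign with vorinostat. RefSeq (GRCh38.p14) gave windows for 8 of the 9 genes, and none for HLA-E. TAP1 and PSMB8 have 2 starts and thus 2 windows each, 10 in all, and the TAP1 window shown is the one nearest to PSMB9. Each line holds the 250 bases before the start, 5′ to 3′ on the strand of the gene, which is the minus strand for all 4. HLA-B is chr6:31357180-31357429, HLA-C chr6:31272093-31272342, TAP1 chr6:32853705-32853954 and TAP2 chr6:32838740-32838989. Capitals mark matches, on either strand, to GAAA and GAAA with 2 bases between them (the GAAA repeat) or to GAANNGAAA, both forms of the interferon-stimulated response element, to the NF-kB consensus, CCAAT, or TGACG (the core of a cyclic AMP response element), and neighbouring matches may run together.
HLA-B: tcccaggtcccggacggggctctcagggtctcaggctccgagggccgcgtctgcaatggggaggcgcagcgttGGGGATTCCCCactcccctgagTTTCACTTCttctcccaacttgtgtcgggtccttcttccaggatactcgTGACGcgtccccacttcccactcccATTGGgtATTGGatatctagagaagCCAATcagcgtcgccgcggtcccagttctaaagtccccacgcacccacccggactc
HLA-C: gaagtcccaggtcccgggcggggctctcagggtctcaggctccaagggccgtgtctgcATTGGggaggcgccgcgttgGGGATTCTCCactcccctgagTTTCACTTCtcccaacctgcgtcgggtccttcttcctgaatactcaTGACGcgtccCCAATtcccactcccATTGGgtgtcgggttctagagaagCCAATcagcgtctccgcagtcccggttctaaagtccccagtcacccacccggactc
TAP1: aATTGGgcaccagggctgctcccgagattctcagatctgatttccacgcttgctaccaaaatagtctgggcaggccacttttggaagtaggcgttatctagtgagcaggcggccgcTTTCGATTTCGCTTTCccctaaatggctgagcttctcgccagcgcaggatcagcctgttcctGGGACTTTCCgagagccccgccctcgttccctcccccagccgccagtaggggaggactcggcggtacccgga
TAP2: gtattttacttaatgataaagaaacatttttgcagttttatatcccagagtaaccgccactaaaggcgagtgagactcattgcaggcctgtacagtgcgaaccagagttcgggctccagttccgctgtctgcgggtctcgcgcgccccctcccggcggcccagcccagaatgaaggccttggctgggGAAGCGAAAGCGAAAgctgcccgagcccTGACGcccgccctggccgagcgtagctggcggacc

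The windows of HLA-B and HLA-C were identical at 226 of 246 aligned bases (91.9%). Both held GAANNGAAA, at 155 and 151 bases before the start, the NF-kB consensus just upstream of it, and TGACG at 106 and 105 bases. The TAP1 window shown held 2 overlapping matches to the GAAA repeat, at 134 and 128 bases, and the NF-kB consensus at 72 bases. The TAP2 window held the GAAA repeat at 58 bases, overlapping GAANNGAAA at 63 bases, and TGACG at 35 bases. Of 35116 RefSeq windows of this length, 3.02% held the GAAA repeat, 6.56% GAANNGAAA, 5.21% the NF-kB consensus, 32% CCAAT and 21.2% TGACG. The 10 windows differed in these matches. The second TAP1 window, chr6:32852762-32853011, held none of them, and neither did the PSMB8 window chr6:32844048-32844297, while there were 2 overlapping GAAA repeats in B2M at 144 and 138 bases and 2 in TAPBP at 20 and 14 bases. A match is a description of the sequence, not a measured binding site.

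Per base of transcript, B2M was the most abundant of the 9 genes and HLA-B and PSMB9 were among the least abundant in vehicle. In RPKM, the CPM divided by the length of the canonical transcript in kilobases, the vehicle mean was 553.5 ± 18.6 for B2M (SD, n = 2 for all means here), 73.6 ± 0.593 for HLA-C, 67.0 ± 1.77 for TAPBP and 63.2 ± 3.49 for HLA-E. It was 21.3 ± 3.80 for PSMB8, 15.7 ± 0.601 for TAP2, 8.44 ± 0.766 for TAP1, 4.59 ± 0.390 for PSMB9 and 1.91 ± 0.166 for HLA-B. With vorinostat, HLA-B reached 21.2 ± 0.354 RPKM, above TAP2 at 7.78 ± 0.303 RPKM and PSMB8 at 6.08 ± 0.706 RPKM, both of which stood above it in vehicle.

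**Figure D1:**
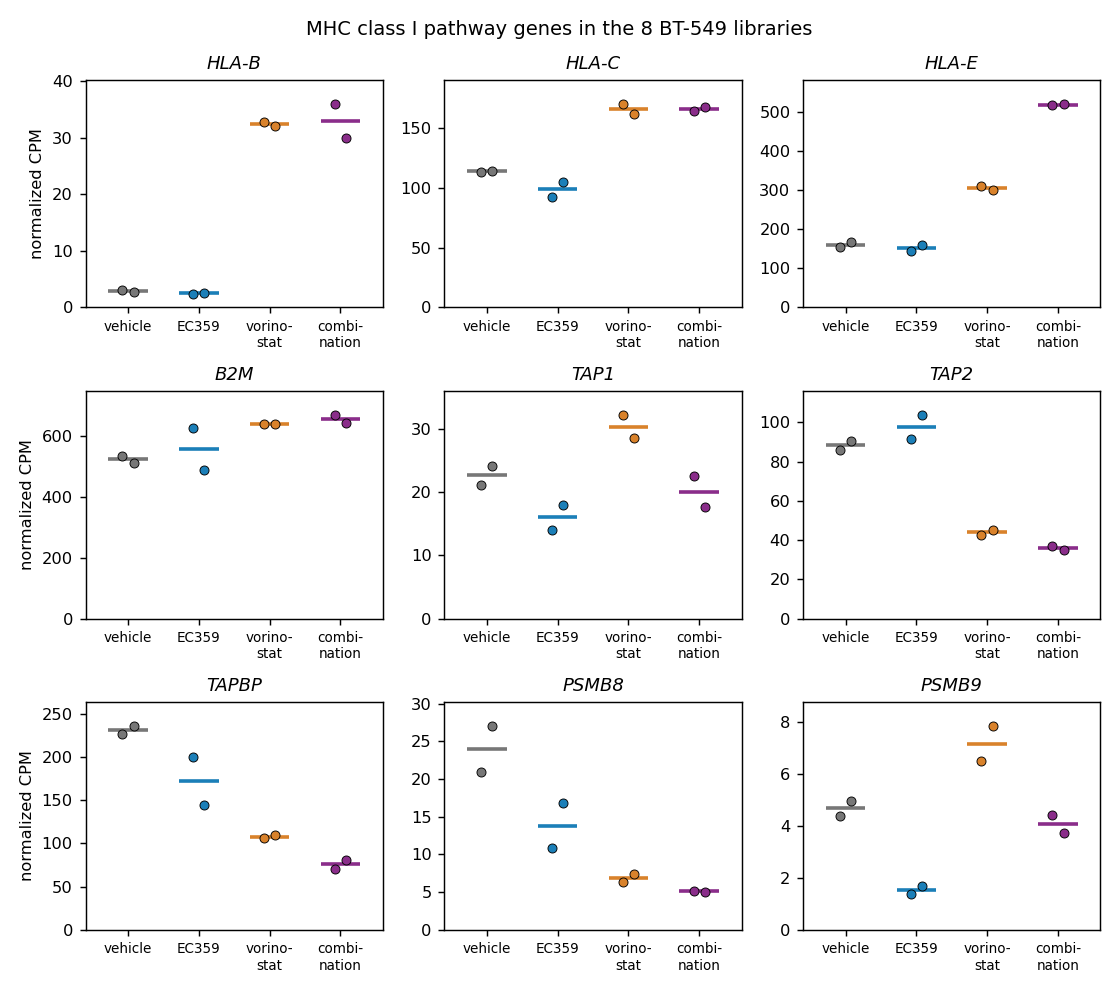
Normalized CPM (linear axes from 0) of each of the 9 genes in the 8 libraries, with points for libraries and a bar for the group mean. HLA-B lay between 2.39 and 3.12 CPM without vorinostat and between 30.0 and 36.0 CPM with it, while TAP2, TAPBP and PSMB8 were lower in every library with vorinostat than in every library without it.

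A call required an adjusted p below 0.01 together with a log2 fold change beyond 1 in either direction (edgeR's quasi-likelihood test, adjusted over all tested genes). Vorinostat against vehicle called 4 of the 9 genes. HLA-B was higher, and PSMB8, TAPBP and TAP2 were lower. In that comparison 30.1% of all tested genes were called, 16.8% higher and 13.3% lower. The combination against vehicle called 5, with HLA-B and HLA-E higher and the same 3 genes lower, where 34.8% of all genes were called, 19.5% higher and 15.3% lower. EC359 against vehicle called 1, PSMB9, which was lower, where 3.67% of all genes were called, 1.94% higher and 1.72% lower. Each of these comparisons shares the vehicle libraries. The libraries of the groups did not overlap for all 9 genes in vorinostat against vehicle, for 7 in the combination against vehicle and for 7 in EC359 against vehicle, beside 88.9%, 86.5% and 53.4% of all tested genes. Without the fold threshold, 6 genes passed with vorinostat, 6 with the combination and 1 with EC359, beside 52.1%, 56.4% and 7.82% of all tested genes. The median log2 fold change of the 9 genes was 0.42 with vorinostat, -0.18 with the combination and -0.23 with EC359, beside medians over all tested genes of 0.03, 0.07 and -0.02.

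The combination was also set against each drug alone. Against EC359 alone, 6 genes were called, with HLA-B, HLA-E and PSMB9 higher and TAP2, PSMB8 and TAPBP lower, where 33.7% of all genes were called, 19.8% higher and 13.9% lower. Against vorinostat alone, edgeR's quasi-likelihood test called 0 of the 9 genes and DESeq2 0, where 4.25% of all genes were called, 3.37% higher and 0.876% lower. In that comparison 5 of the 9 had an unadjusted p under 0.05. No share over all tested genes was taken at that threshold, here or for the lists below. Such counts therefore give no result about these genes. For 1, HLA-E, the adjusted p was under 0.01 with a log2 fold change under 1, beside 13.7% of all genes without the fold threshold. Against EC359, 7 passed without it, beside 55.8% of all genes. The libraries did not overlap for 8 genes against EC359 and for 7 against vorinostat, beside 79.7% and 72.9% of all genes.

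**Figure D2:**
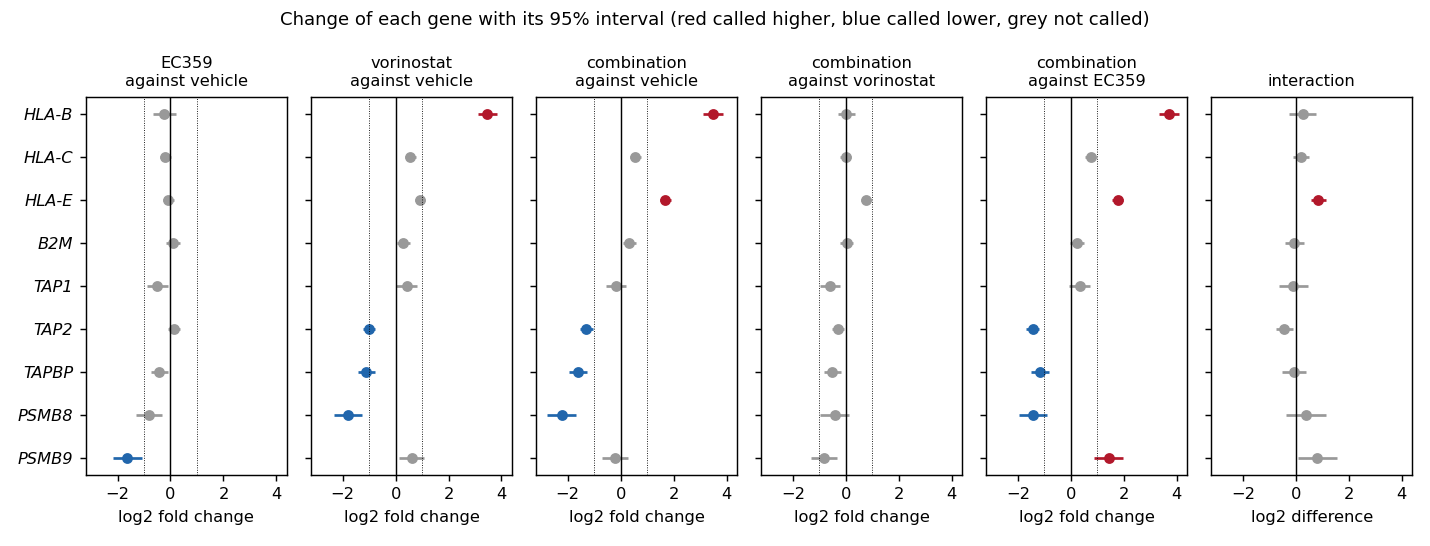
Log2 fold change of each of the 9 genes in the 5 comparisons of groups and the interaction of the drugs (horizontal axes, log2), with 95% intervals from edgeR's quasi-likelihood fit. Red points were called higher, blue lower and grey were not called, and dotted lines mark the fold threshold of 1, which the interaction did not use.

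HLA-B encodes a classical heavy chain that presents peptides to CD8+ T cells. It had 66 and 59 reads with vehicle, 58 and 52 with EC359, 639 and 755 with vorinostat, and 703 and 588 with the combination. In CPM these were 3.12 and 2.76, 2.39 and 2.64, 32.9 and 32.1, and 36.0 and 30.0. Every library with vorinostat stood far above every library without it, and the combination libraries lay on both sides of the vorinostat libraries. HLA-B rose 11.04-fold with vorinostat (log2 fold change 3.47, SE 0.16, adjusted p = 4.3e-07, edgeR's quasi-likelihood test) and 11.2-fold with the combination (log2 3.49, SE 0.16, adjusted p = 2.7e-07). Against EC359 alone, the combination was 13.1-fold higher (log2 3.71, SE 0.17, edgeR adjusted p = 2.7e-07). The combination and vorinostat differed by 0.02 on the log2 scale, with a 95% interval of -0.28 to 0.33 (edgeR adjusted p = 0.92). With EC359 alone the difference from vehicle was -0.23 (95% interval -0.65 to 0.20, edgeR adjusted p = 0.45), although both EC359 libraries lay below both vehicle libraries. In bulk RNA, a change in the number of cells that express a gene and a change in the RNA per cell cannot be told apart.

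HLA-C, the other classical heavy chain gene among the 9, had 112.8 and 114.1 CPM with vehicle and 92.5 and 104.5 with EC359. It had 169.6 and 161.6 CPM with vorinostat and 163.5 and 166.9 with the combination. The 4 libraries with vorinostat were all above the 4 without it, and vorinostat and the combination overlapped. HLA-C was 1.46-fold higher with vorinostat (log2 0.55, SE 0.09, edgeR adjusted p = 6.9e-04) and 1.46-fold higher with the combination (log2 0.54, SE 0.09, edgeR adjusted p = 6.4e-04), below the fold threshold. Against EC359 alone the combination was higher by 0.75 on the log2 scale (edgeR adjusted p = 9.0e-05). HLA-C in the combination differed from vorinostat by less than 0.01 on the log2 scale, with a 95% interval of -0.21 to 0.20.

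HLA-E encodes a nonclassical heavy chain that is recognised by NKG2A on natural killer cells. It had 154.7 and 167.3 CPM with vehicle, 144.1 and 161.1 with EC359, 310.6 and 300.3 with vorinostat, and 518.7 and 521.1 with the combination. The groups formed 3 levels, with vehicle and EC359 overlapping, vorinostat above them, and the combination above all other libraries. HLA-E rose 3.23-fold with the combination against vehicle (log2 1.69, SE 0.09, edgeR adjusted p = 5.7e-07) and 3.41-fold against EC359 alone (log2 1.77, SE 0.09, edgeR adjusted p = 5.4e-07). With vorinostat alone it was 1.90-fold higher (log2 0.92, SE 0.09, edgeR adjusted p = 2.3e-05), just under the fold threshold. The combination was 1.70-fold above vorinostat alone (log2 0.77, SE 0.09, edgeR adjusted p = 4.8e-04), also under the fold threshold. EC359 alone differed from vehicle by -0.08 on the log2 scale (95% interval -0.28 to 0.13).

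The interaction asked whether the change made by EC359 differed with and without vorinostat. HLA-E was the gene called among the 9, at an adjusted p under 0.01, where 2.1% of all tested genes were called, 1.62% with a positive and 0.482% with a negative value. Its interaction was 0.85 on the log2 scale (SE 0.13, 95% interval 0.56 to 1.13, edgeR adjusted p = 0.0059). This call was lost in 8 of 15 other fits, with adjusted p up to 0.086, and the value stayed between 0.76 and 0.92. It was lost when any library of vehicle, vorinostat or the combination was left out. It was lost too with the replicate number as a block (edgeR adjusted p = 0.012). The labels do not say whether these numbers pair the libraries. The other 8 genes had an adjusted p of 0.12 or more for the interaction, with PSMB9 at 0.81 (SE 0.32, unadjusted p = 0.033, edgeR adjusted p = 0.18) and TAP2 at -0.43 (SE 0.14, edgeR adjusted p = 0.12).

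The 3 heavy chain genes were also set against each other, per base of transcript. Of their summed reads, HLA-B made up 1.49% and 1.27% with vehicle, 1.32% and 1.29% with EC359, 8.45% and 8.58% with vorinostat, and 7.03% and 5.88% with the combination. HLA-E made up 44.7% and 46.4% with vehicle, 47.9% and 47.6% with EC359, 48.1% and 48.4% with vorinostat, and 61.1% and 61.5% with the combination. HLA-C had the largest share of the 3 in the libraries without vorinostat, with 50.8% to 53.8%, and HLA-E in the libraries with it, where HLA-C had 31.8% to 43.4%. The reads of these genes are not fully separable, as given below, so which transcript was the most abundant is uncertain.

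B2M encodes beta-2-microglobulin, the light chain that every class I heavy chain needs to reach the cell surface. It had 534.4 and 509.5 CPM with vehicle, 626.2 and 488.8 with EC359, 638.9 and 638.2 with vorinostat, and 667.0 and 640.7 with the combination. Its libraries with vorinostat were above all others by a small margin, and the EC359 libraries spanned the vehicle range. B2M differed from vehicle by 0.29 on the log2 scale with vorinostat (95% interval 0.04 to 0.55, edgeR adjusted p = 0.046) and by 0.33 with the combination (95% interval 0.07 to 0.58, edgeR adjusted p = 0.028). Neither passed the threshold. The summed level of HLA-B, HLA-C and HLA-E per base was 24.0% and 26.2% of the B2M level with vehicle and 17.8% and 25.6% with EC359. It was 37.4% and 36.0% with vorinostat, and 47.1% and 48.9% with the combination, so the 3 levels of this ratio did not overlap between libraries without vorinostat, with vorinostat alone and with the combination.

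**Figure D3:**
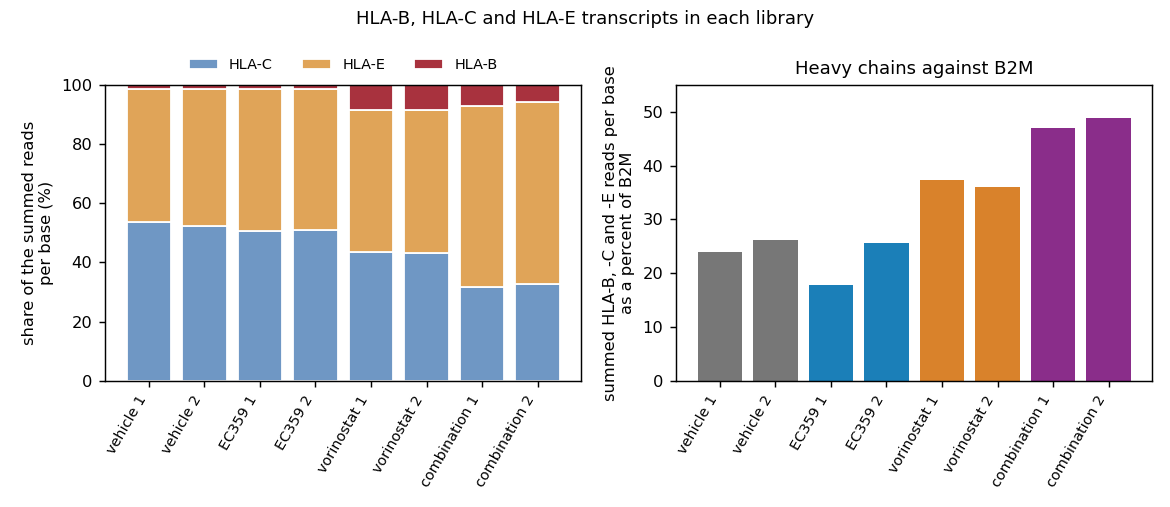
Left, the share of each heavy chain gene among the reads per base of HLA-B, HLA-C and HLA-E in each library (percent, bars sum to 100). Right, the summed reads per base of these genes as a percent of B2M, which ran from 17.8% to 26.2% without vorinostat and from 36.0% to 48.9% with it.

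The reads of the heavy chains are not fully separable. Of all 50-base stretches of the canonical transcript, the length of the reads, 39.5% in HLA-B and 40% in HLA-C lay within 2 mismatches of another HLA class I gene, against 10.7% in HLA-E. An exact copy in a gene elsewhere was found for 2.56% of the stretches in HLA-B, 6.76% in HLA-C and 6.16% in HLA-E, and for none in B2M, PSMB8 or PSMB9. HLA-B and HLA-C levels are uncertain for this reason, and these shares do not bound the error. HLA-B is the more exposed, with 52 to 66 reads in a library without vorinostat, against 2060 to 2442 for HLA-C. A small share of HLA-C reads placed on HLA-B would change its level there and its fold change. The stretches are those of the reference alleles, not of the alleles in BT-549. An antisense gene also covers 23.7% of the HLA-B transcript. The ratio of HLA-B to HLA-C per base went from 2.77% and 2.43% with vehicle to 19.5% and 19.9% with vorinostat.

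TAP1 and TAP2 encode the subunits of the transporter that carries peptides into the endoplasmic reticulum. TAP1 had 21.2 and 24.1 CPM with vehicle, 14.02 and 18.01 with EC359, 32.2 and 28.5 with vorinostat, and 22.5 and 17.6 with the combination. The vorinostat libraries were highest, the EC359 libraries were below vehicle, and the combination overlapped with both vehicle and EC359. No comparison of TAP1 passed the threshold. Its value was -0.50 with EC359 (edgeR adjusted p = 0.086), 0.42 with vorinostat (edgeR adjusted p = 0.056) and -0.60 for the combination against vorinostat (edgeR adjusted p = 0.032).

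TAP2 had 85.9 and 90.7 CPM with vehicle, 91.5 and 103.6 with EC359, 42.7 and 45.1 with vorinostat, and 37 and 34.8 with the combination. The 4 groups did not overlap, in the order combination, vorinostat, vehicle and EC359 from low to high. TAP2 fell 2.01-fold with vorinostat (log2 -1.01, SE 0.10, edgeR adjusted p = 2.9e-05) and 2.46-fold with the combination (log2 -1.30, SE 0.10, edgeR adjusted p = 5.2e-06). The vorinostat value sat at the fold threshold and was called in 10 of 16 other fits, in which it ranged from -1.06 to -0.98. The loss came with vehicle 2 or vorinostat 1 left out and in the fits with RLE, with a filter on CPM, with DESeq2 and of the compared groups alone. Against EC359 alone the combination was 2.72-fold lower (log2 -1.44, SE 0.10, edgeR adjusted p = 3.1e-06).

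The ratio of TAP1 to TAP2 per base was 51.9% and 55.8% with vehicle and 32.2% and 36.5% with EC359. It was 158% and 133% with vorinostat and 128% and 106% with the combination. TAP1 transcripts were therefore fewer than TAP2 transcripts per base in every library without vorinostat and more numerous in every library with it. TAP2 shares 35.8% of its canonical transcript with exons of a readthrough gene on the same strand, and TAP1 shares 13.7% with PSMB8-AS1 on the opposite strand. The strand setting of the counting was not given in the sources used here, so reads of TAP1 and of this antisense gene cannot be told apart.

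TAPBP encodes tapasin, which bridges the transporter and the heavy chain and helps choose stable peptides. It had 226.7 and 235.4 CPM with vehicle, 199.5 and 143.9 with EC359, 106.7 and 109.1 with vorinostat, and 70.9 and 81.0 with the combination. The groups did not overlap, and the EC359 libraries were spread widest. TAPBP fell 2.14-fold with vorinostat (log2 -1.10, SE 0.15, edgeR adjusted p = 1.6e-04) and 3.04-fold with the combination (log2 -1.61, SE 0.15, edgeR adjusted p = 1.3e-05). Against EC359 alone, the combination was 2.26-fold lower (log2 -1.18, SE 0.15, edgeR adjusted p = 9.6e-05), which became -0.94, under the fold threshold, without EC359 1. EC359 against vehicle gave -0.43 (SE 0.14, edgeR adjusted p = 0.077) and the combination against vorinostat -0.51 (SE 0.15, edgeR adjusted p = 0.031). An antisense gene covers 40.5% of the TAPBP transcript, with the same limit as for TAP1.

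PSMB8 encodes the immunoproteasome subunit that takes the place of PSMB5. It had 20.96 and 27.0 CPM with vehicle, 10.8 and 16.8 with EC359, 6.28 and 7.40 with vorinostat, and 5.17 and 5.06 with the combination. The groups did not overlap, in descending order vehicle, EC359, vorinostat and combination. PSMB8 fell 3.50-fold with vorinostat (log2 -1.81, SE 0.23, edgeR adjusted p = 1.2e-04) and 4.69-fold with the combination (log2 -2.23, SE 0.24, edgeR adjusted p = 3.4e-05). The combination was 2.69-fold below EC359 alone (log2 -1.43, SE 0.24, edgeR adjusted p = 6.2e-04). With EC359 alone the value was -0.80 (SE 0.22, edgeR adjusted p = 0.038), and without EC359 2 it was -1.14 and passed the threshold (edgeR adjusted p = 3.6e-04, over all fits 3.6e-04 to 0.28).

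PSMB9, the subunit that takes the place of PSMB6, is read from the promoter region it shares with TAP1. It had 93 and 106 reads with vehicle, 33 and 33 with EC359, 126 and 184 with vorinostat, and 86 and 73 with the combination. In CPM these were 4.39 and 4.95, 1.36 and 1.67, 6.48 and 7.82, and 4.401 and 3.73. The EC359 libraries were below and the vorinostat libraries above all others, and the combination overlapped with vehicle. PSMB9 fell 3.09-fold with EC359 (log2 -1.63, SE 0.24, 95% interval -2.17 to -1.08, edgeR adjusted p = 0.002). This call was lost without either vehicle library and in the fit of vehicle and EC359 alone, where the value stayed between -1.70 and -1.53 (edgeR adjusted p = 0.014 to 0.024, over all 16 other fits 5.0e-05 to 0.024). Vorinostat alone gave 0.62 (SE 0.21, edgeR adjusted p = 0.027), and the combination against vorinostat -0.82 (SE 0.21, edgeR adjusted p = 0.021). The combination was 2.69-fold above EC359 alone (log2 1.43, SE 0.24, edgeR adjusted p = 6.8e-04). This call was kept in 15 of 16 other fits and lost in the fit of those groups alone (log2 1.38, edgeR adjusted p = 0.011, over all other fits 1.4e-04 to 0.011). PSMB9 and PSMB8 had values of opposite sign with vorinostat, although their genes lie close together in the MHC region.

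The immunoproteasome subunits were also read against the subunits they replace, per base. PSMB8 was 8.78% and 9.80% of PSMB5 with vehicle, 5.36% and 6.27% with EC359, 4.27% and 5.32% with vorinostat, and 4.71% and 5.33% with the combination. PSMB9 was 1.92% and 2.01% of PSMB6 with vehicle, 0.730% and 0.765% with EC359, 4.81% and 5.86% with vorinostat, and 4.71% and 4.32% with the combination. The constitutive subunits stayed far more abundant than their counterparts in every library, and the PSMB8 ratio was lower with each treatment while the PSMB9 ratio was lower with EC359 and higher with vorinostat. PSMB5 and PSMB6 moved too, by -0.85 (edgeR adjusted p = 7.8e-04) and -0.82 (edgeR adjusted p = 1.2e-04) with vorinostat. With the combination they moved by -1.33 (edgeR adjusted p = 4.2e-05) and -1.40 (edgeR adjusted p = 3.8e-06). PSMB9 itself was not called against vehicle with vorinostat (log2 0.62) or with the combination (log2 -0.20), so its higher ratio also reflects the lower PSMB6 level. PSMB10, the remaining immunoproteasome subunit, was 6.18% and 7.25% of PSMB7 with vehicle and 2.00% and 1.499% with the combination. It fell with vorinostat (log2 -1.14, SE 0.31, edgeR adjusted p = 0.0095) and with the combination (log2 -1.98, SE 0.33, edgeR adjusted p = 5.4e-04).

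**Figure D4:**
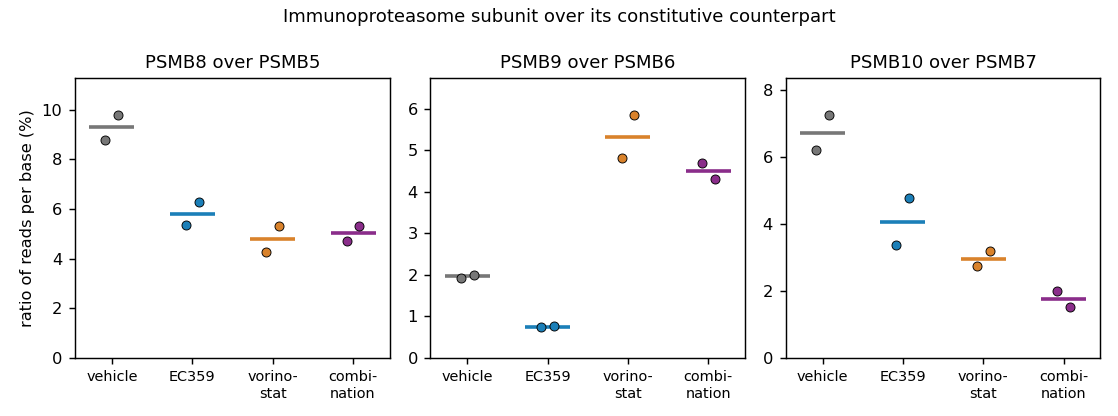
Reads per base of each immunoproteasome subunit as a percent of the constitutive subunit it replaces (linear axes from 0), with points for libraries and a bar for the group mean. PSMB9 over PSMB6 ran from 0.730% with EC359 to 5.86% with vorinostat, while PSMB8 over PSMB5 and PSMB10 over PSMB7 were highest in the vehicle libraries.

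The 9 genes did not move as a unit over the 8 libraries. As a description, with no test, the Pearson correlation of log2 CPM over the 8 libraries, which share their treatments, was 0.97 between HLA-B and HLA-C and 0.93 between HLA-B and HLA-E. TAP2, TAPBP and PSMB8 correlated with each other at 0.89 to 0.91, and with HLA-B at -0.98, -0.90 and -0.89. TAP1 and PSMB9, which share a promoter region, correlated at 0.90 with each other and at no more than 0.75 with any other of the 9 genes. Outside the 9 genes, among 9746 genes with an average log2 CPM of at least 3, the patterns most like HLA-B were those of STX12 (0.999), PKIA (0.999) and WDR7 (0.998). For B2M they were DDX24 (0.990), STAU1 (0.985) and KIF5C (0.978), and for TAP1 ASF1B (0.983), ETFB (0.976) and FH (0.976).

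Other genes of the pathway were read from lists. In the loading complex and peptide trimming list, all 9 genes were tested, and vorinostat called 1 higher and 2 lower. Over all tested genes it called 16.8% higher and 13.3% lower. HSPA5, an endoplasmic reticulum chaperone, rose by 1.76 on the log2 scale with vorinostat (edgeR adjusted p = 3.4e-07) and by 2.84 with the combination (edgeR adjusted p = 3.0e-08). The aminopeptidases ERAP1 and ERAP2, which trim peptides to fit the groove, were the genes called lower. ERAP1 fell by 1.43 with vorinostat (edgeR adjusted p = 1.3e-05) and by 1.94 with the combination (edgeR adjusted p = 1.8e-06). ERAP2 had 49 and 50 reads with vehicle and at most 6 with vorinostat (edgeR adjusted p = 5.8e-04). The median of the list was -0.43 with vorinostat and -0.55 with the combination.

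Of 3 tested genes among the other class I heavy chains, HFE, an iron regulator, fell by 2.08 on the log2 scale with vorinostat (edgeR adjusted p = 1.1e-04). MR1, which presents vitamin metabolites to mucosal-associated T cells, fell by 1.03 with EC359 (edgeR adjusted p = 0.0021). CD1D, in that list too, had 0 reads in all libraries. Of 8 genes for immunoproteasome, activator and assembly factors, only PSMB10 was called with vorinostat, beside 30.1% of all tested genes. With EC359 edgeR called 0 of the 8, beside 3.67% of all tested genes, and 2 had an unadjusted p under 0.05. The activator gene PSME2 came near, at -0.82 with EC359 (edgeR adjusted p = 0.0078), under the fold threshold. Of 14 constitutive 20S proteasome genes, edgeR called 0 with EC359, where 0 had an unadjusted p under 0.05, and 0 with vorinostat, where 7 did. With the combination 3 were called lower, PSMB6, PSMB5 and PSMA1, beside 15.3% of all tested genes.

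Of 20 tested regulator and interferon gamma pathway genes, vorinostat called 1 higher, IFNGR1, and 4 lower, NFKB1, IFNGR2, IRF2 and NFYC. Over all tested genes it called 16.8% higher and 13.3% lower. The combination called CIITA and IFNGR1 higher and NFKB1, IFNGR2, NLRC5 and NFYC lower, beside 19.5% and 15.3% of all tested genes. With 6 to 7 reads in the vehicle libraries, CIITA passed the filter on low counts only through treated libraries. This favoured a higher call, so the CIITA call cannot be read against that share. With vorinostat 16 of the 20 had a negative value and 4 a positive one, and with the combination 13 and 7. Of all 13694 tested genes, 6704 were negative and 6990 positive with vorinostat, and 6538 and 7154 with the combination. The median of the list was -0.38 with vorinostat and -0.46 with the combination.

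IRF1, a transcription factor induced by interferon, had 40.1 to 45.1 CPM with vehicle, 18.8 to 22.7 with EC359, 25.2 to 26.6 with vorinostat and 29.2 to 33.0 with the combination. It was highest with vehicle and lowest with EC359, with no overlap between groups. It fell by 1.04 with EC359 (edgeR adjusted p = 0.001) and was the only gene of this list called there, where 3.67% of all tested genes were called. NLRC5, the transactivator of class I genes, was sparsely read, with 67 to 77 reads with vehicle, 73 to 74 with EC359, 57 to 71 with vorinostat and 27 to 32 with the combination. It fell by 1.16 with the combination (SE 0.26, edgeR adjusted p = 0.0033) and differed from vehicle by -0.18 with vorinostat (edgeR adjusted p = 0.52). IFNG had 0 reads in all libraries.

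The receptor subunit genes of interferon gamma moved apart. With vorinostat, IFNGR1 rose by 1.38 on the log2 scale (edgeR adjusted p = 8.2e-06) and IFNGR2 fell by 1.58 (edgeR adjusted p = 3.2e-06). NFKB1, a subunit gene of NF-kB, had 1026 to 1170 reads with vehicle and 85 to 101 with vorinostat, and fell by 3.57 (edgeR adjusted p = 2.2e-06). Broadly expressed genes of the MHC region, which share the location but not the function, included 15 tested genes. With vorinostat 3 of them were called, all lower (ATF6B, MRPS18B and TUBB), with a median of -0.18. Over all tested genes, 13.3% were called lower with vorinostat and 16.8% higher.

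**Figure D5:**
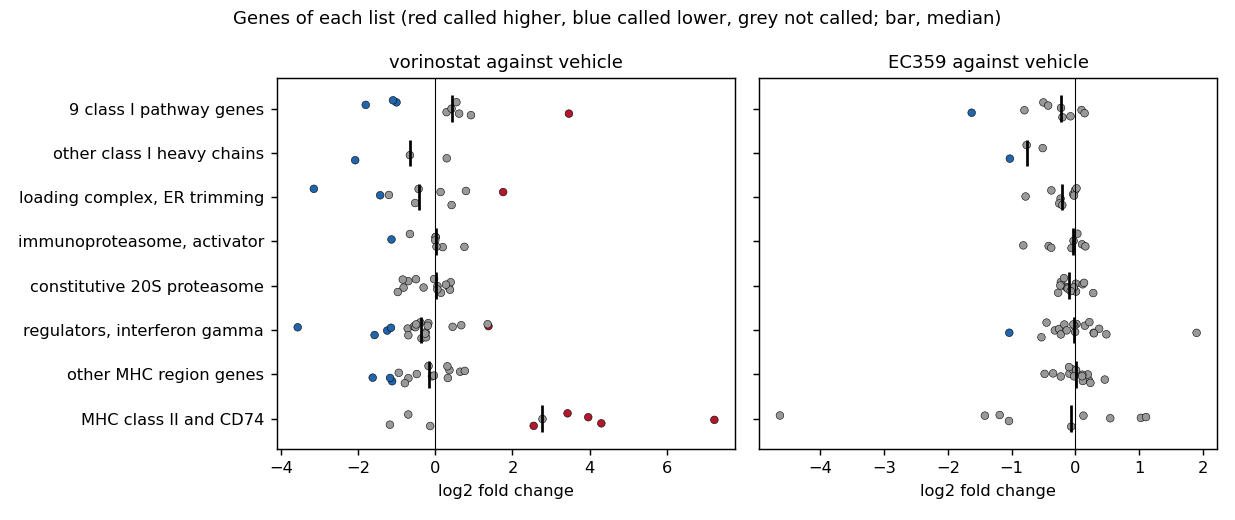
Log2 fold change (horizontal axes) of every tested gene of the lists with vorinostat and with EC359 against vehicle, with a bar for the median of each list. HLA-B at 3.47 and NFKB1 at -3.57 lay far from the medians of their lists with vorinostat, and the point farthest left with EC359 is HLA-DPB1, with 0 reads in both EC359 libraries, whose place is set by the fit.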

How the data were processed

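RNA-seq was done on 8 BT-549 libraries, 2 per group. Per the labels and the study's methods, 50 bp single-end TruSeq reads were aligned by the authors to hg19 with TopHat2 2.0.8b and counted on NCBI RefSeq genes with HTSeq. The HTSeq version and strand setting are not given in the sources used here. The deposited values are raw read counts per gene symbol, without normalization, and the 5 summary lines were left out. Reads on no gene made up 11% to 14.2% of unique alignments. HLA genes are polymorphic and reads were aligned to the reference alleles, which can lower their counts.

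Counts were filtered with filterByExpr, scaled by TMM (factors 0.955 to 1.03) and fitted over all 8 libraries with edgeR 4.0.16 in R 4.3.3. Quasi-likelihood tests were two-sided and adjusted by Benjamini-Hochberg over 13694 genes. Calls required an adjusted p below 0.01 and a log2 fold change beyond 1 either way, interactions the adjusted p only. The 9 genes and all lists were chosen with earlier results of these data known. All 9 are described, and some genes of the lists are not reported here. From each list the called genes with the largest changes are named, and IRF1 and NLRC5 always, while MR1, PSME2, CD1D and IFNG, and the PSMB5 to PSMB7 counterparts, were named for reference. Genes with a like pattern were the 3 with the highest Pearson correlation of log2 CPM. Transcript lengths and positions came from GENCODE 44 on GRCh37 and were matched for 17583 of 23228 symbols. Alternatives were RLE and total-count scaling, other filters and thresholds, DESeq2 1.42.0, a replicate block, fits of the compared groups and leaving out each library. A crossed block was added after seeing the data. The procedure was tested on simulated data. The labels do not say whether replicate numbers pair the libraries.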

Additional observations from a re-analysis of the deposited data

Results flagged for a closer look

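For 3 genes of the class I lists the change made by EC359 differed with and without vorinostat, by the interaction test in edgeR's quasi-likelihood fit at an adjusted p under 0.01. The lists searched held 9, 3, 9, 8, 14 and 20 tested genes, and 2.1% of all tested genes were called. HLA-E had an interaction of 0.8451 on the log2 scale (adjusted p = 0.0059). For HSPA5 it was 1.4613 (adjusted p = 1.7e-04) and for IRF1 1.3006 (adjusted p = 0.0055). For HLA-E the value of EC359 was -0.08 alone and 0.77 with vorinostat. For HSPA5 the value of EC359 was -0.38 alone and 1.08 with vorinostat, and for IRF1 it was -1.04 alone and 0.26 with vorinostat. The HLA-E call was lost in 8 of 15 other fits. Those fits were read only for the 9 genes, so the HSPA5 and IRF1 calls were not checked in them.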

How the results depend on the processing

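Of 855 values of the 9 genes under 16 alternatives, 815 kept their direction and side of the threshold, 19 were no longer called, 1 was newly called and 20 changed sign. None of the values that changed sign was called. The count of genes called with EC359 against vehicle was 1, and 0 in the fit of the compared groups. With a library left out it ranged from 0 to 2. Combination against vorinostat went from 0 to 1 (HLA-E) with no fold threshold. The interaction count was 1, and 0 with total counts and with the replicate block, and ranged from 0 to 1 with a library left out. The cause was not tested. The labels do not say whether the replicate numbers pair the libraries, and the correlations of deviations, -0.173 to 0.231, cannot decide it. The block changed no other call. With crossed numbers for the combination, the counts stayed within 1.5 times.

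Values that changed sign were small. HLA-B in combination against vorinostat was -0.0126 with RLE and with DESeq2, -0.0657 with total counts and -0.0165 without a filter, and B2M there was -0.0013, -0.0013, -0.0541 and -0.0051. With a library left out, HLA-B there ranged from -0.1500 to 0.1051 and B2M from -0.0320 to 0.0364. In EC359 against vehicle, B2M then ranged from -0.0897 to 0.2730 and HLA-E from -0.1497 to 0.0058, where the sign turned without EC359 1. The interactions ranged from -0.2367 to 0.1258 for B2M, from -0.3379 to 0.0884 for TAP1 and from -0.3028 to 0.1731 for TAPBP. With 2 libraries a group, small differences lie within the intervals, and HLA-B in vehicle and EC359 rests on 52 to 66 reads a library. No scaling moved the median of all genes by over 0.1.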

Other observations

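Genes of the MHC class II pathway, which present peptides to CD4+ T cells and are restricted mostly to antigen-presenting cells, were read in the same libraries. Of 9 tested genes of this list, edgeR's quasi-likelihood test called 0 with EC359 against vehicle, beside 3.67% of all tested genes, and 1 had an unadjusted p under 0.05. With vorinostat and with the combination against vehicle, 5 were called higher by that test. Over all tested genes, 16.8% were called higher with vorinostat and 19.5% with the combination. The 5 genes were HLA-DMB, HLA-DMA, HLA-DQB1, HLA-DPA1 and HLA-DPB1. All but HLA-DMA had at most 8 reads in any library without vorinostat, so they passed the filter on low counts only through libraries with it. A higher call was thus nearly fixed once they were tested, and the count cannot be read against those shares. HLA-DRB1 and HLA-DQA1, also in the list, were not tested. HLA-DMB, a chaperone of class II loading, had 0 to 3 reads with vehicle, 1 to 6 with EC359, 228 to 267 with vorinostat and 139 to 156 with the combination. HLA-DMA, its partner, had 26 to 32, 12 to 17, 162 to 181 and 89 to 90 reads. The summed level of the list was 2.90 to 6.47 CPM with vehicle and 29.2 to 30.7 CPM with vorinostat. HLA-B had 2.76 to 3.12 CPM with vehicle and 32.1 to 32.9 CPM with vorinostat. HLA-DRA and CD74, the most abundant class II genes of antigen-presenting cells, had at most 29 and 45 reads in a library. CIITA, the transactivator of class II genes, had 6 to 7 reads with vehicle, 22 to 28 with EC359, 15 to 19 with vorinostat and 28 to 53 with the combination, where it was called higher (edgeR adjusted p = 0.0012). CIITA too passed the filter on low counts only through treated libraries, which favoured that call.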
